A study of Mus musculus with 7 samples.

Results

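The histone deacetylase genes Hdac1, Hdac2, Hdac3, Hdac4, Hdac5, Hdac6, Hdac7, Hdac8, Hdac9 and Hdac11 were followed in the mouse mammary gland. They were found by gene name on the array, where 10 of 24813 named genes carried 23 of the 56605 probes. Hdac9 is among the genes that the study listed as lower in PRA transgenics from these same arrays, and the family was chosen around it with that result known. The genotype difference of Hdac9 is therefore given as a description, with no test, and tests are given for the other 9 genes.

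RNA was taken from 1 abdominal mammary gland of each of 7 nulliparous FVB mice aged 20 to 25 weeks, killed at diestrus, with the lymph node removed. The 3 wild-type mice carried no transgene. The 4 PRA transgenic mice carried a GAL-4 gene under the murine cytomegalovirus promoter together with a UAS-linked gene for the A form of the progesterone receptor, so that the A form exceeds the B form. That promoter is active in many cell types, and the gland holds epithelium, fat, vessels and immune cells, so fewer cells of a type and less RNA per cell cannot be told apart in these values. Gland RNA was labelled with Cy5 and hybridised against Universal Mouse Reference RNA, pooled from 11 cell lines and labelled with Cy3, on every array. The comparison asks how gland RNA differs when the A form predominates.

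Histone deacetylases take acetyl groups off lysines of histones and other proteins, and are best known as the catalytic part of transcriptional corepressor complexes. Class I holds Hdac1, Hdac2, Hdac3 and Hdac8, class IIa holds Hdac4, Hdac5, Hdac7 and Hdac9, class IIb includes Hdac6, and Hdac11 is class IV. Class IIa proteins have little catalytic activity of their own. They bind MEF2 factors on DNA, bring in the NCoR and SMRT complexes with Hdac3, and are moved out of the nucleus when kinases phosphorylate them and 14-3-3 proteins bind. A short product of Hdac9, known as MITR or HDRP, keeps the MEF2-binding part and lacks the deacetylase domain.

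Across the arrays, Cy5 was well above background for 56.6% to 66.2% of probes and no spot was saturated. Probes were kept when all arrays of 1 genotype or of both had Cy5 well above background, which left 34284 probes, 19 of them in the family. All 7 arrays sat on 1 slide and were scanned together, with the wild-type arrays in the first row and the PRA transgenic arrays in the second, so row and genotype cannot be told apart. The mean log2 ratio of white adipocyte markers lay between 5.70 and 6.36, that of luminal epithelial markers between 2.82 and 3.55 and that of basal epithelial markers between 2.12 and 2.46 over the 7 arrays, so the markers of the labelled tissue were present on each. Skeletal muscle markers, 7 of 8 measured, were high on wild-type 1 and 3 (2.13 and 3.47) and PRA transgenic 4 (2.68) and lay between -0.86 and -0.51 on the other 4 arrays. T cell and B cell markers were highest on wild-type 1, at 1.75 and 0.68. None of the marker lists passed a test by genotype, with the lowest two-sided exact permutation p at 0.286 in the ratio and 0.171 in Cy5 alone (T cell markers) where the design allows 0.0286. The progesterone receptor gene Pgr had 4 probes, of which 2 were kept, and its brightest was lower by 0.65 (SE 0.80) in the log2 ratio with an adjusted p of 0.858 in limma and differed by 0.037 in Cy5 alone. Whether that probe reads the transgene was not tested.

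Hdac9 had 6 probes, all on the minus strand of chromosome 12 and spread over 387 kb (mouse build mm9). No annotation of that build was used, so exons are not assigned here. The probes are shown because the array reads the short and the long transcript at different places. In the order of transcription they begin with A_55_P2733412, at chr12:35119285-35119344, from a cDNA that the array file describes as the MEF2-interacting transcription repressor. That probe is listed under neither transcript variant 1 nor variant 2, and which transcripts it reads was not tested. A_51_P204031, at chr12:35074257-35074316, is listed in the array file under transcript variants 1 and 2 alike. A_55_P1970755, at chr12:35056405-35056464, lies at the far end of transcript variant 2. The remaining probes belong to transcript variant 1, with A_55_P2065074 at chr12:34792084-34792143, A_51_P255467 at chr12:34735842-34735901, and A_55_P2497024 at chr12:34732448-34732507, which is 324 kb beyond the variant 2 probe.

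Printed 5′ to 3′ as deposited, A_51_P204031 and A_55_P2065074 in full and the last 30 bases of the others, with AATAAA in capitals, read as follows.
A_55_P2733412, last 30 bases: ttcatttttgttctgttttgttctattatt
A_51_P204031: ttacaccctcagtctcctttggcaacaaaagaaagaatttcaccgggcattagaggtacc
A_55_P1970755, last 30 bases: ttgtttgtatgttgccctttatgccttctg
A_55_P2065074: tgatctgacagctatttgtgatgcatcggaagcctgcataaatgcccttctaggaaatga
A_51_P255467, last 30 bases: acatgtcaatgaagatgacaacggtctgaa
A_55_P2497024, last 30 bases: tagtcccatgtgAATAAAagctatttgaaa

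AATAAA is the commonest polyadenylation signal. Of the 6 Hdac9 probes, 1 held it, the last of transcript variant 1. Among all 56605 probes of the array, 9.77% held it anywhere in the 60 bases as printed, which is how the Hdac9 probes were searched. In the last 30 bases 8.13% held it, and 13.3% held it anywhere on either strand. The match describes the letters and does not show that the signal is used.

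In the gland, Hdac9 was measured most firmly by A_55_P1970755, the probe at the end of transcript variant 2, whose Cy5 was well above background on all 7 arrays. On a log2 scale relative to the 75th percentile of each array, its Cy5 was -1.73, -0.86 and -1.65 in wild-type 1 to 3 and -1.93, -2.73, -2.65 and -2.30 in PRA transgenic 1 to 4. All 4 PRA transgenic arrays lay below all 3 wild-type arrays, with 0.20 between the nearest pair. The means were -1.41 ± 0.48 (SD, n = 3) and -2.40 ± 0.37 (SD, n = 4), a difference of -0.99. Over all probes kept, 4.57% had every PRA transgenic array below every wild-type array in Cy5.

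Set against the reference, the same probe overlapped between the genotypes. Its log2 ratio was 2.92, 4.16 and 3.88 in wild-type 1 to 3 and 3.92, 2.35, 3.38 and 2.52 in PRA transgenic 1 to 4, a difference of -0.61. PRA transgenic 1 lay above 2 of the 3 wild-type arrays and wild-type 1 lay below 2 of the 4 PRA transgenic arrays. The Cy3 signal beneath these ratios never stood well above background. It was -4.62, -5.00 and -5.51 in wild-type and -5.82, -5.05, -6.00 and -4.81 in PRA transgenic arrays, so the ratio carries a reference level that was itself not measured.

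The last probe of transcript variant 1, A_55_P2497024, showed the opposite pattern. Its log2 ratio was 2.85, 2.88 and 2.49 in wild-type and 0.73, 0.67, 0.60 and 1.33 in PRA transgenic arrays, 1.91 lower on average and with 1.16 between the nearest pair, but the difference was -0.74 with normexp, which adds 50 to every signal. In Cy5 alone it read -3.70, -2.02 and -3.21 in wild-type and -2.86, -4.85, -4.74 and -3.78 in PRA transgenic arrays. The difference was then -1.08 and the genotypes overlapped, PRA transgenic 1 lying above wild-type 1 and 3. Cy5 was well above background on 3 of 3 wild-type and 2 of 4 PRA transgenic arrays, and Cy3 on none. The Cy3 of this probe was 0.83 higher in PRA transgenic arrays, where PRA transgenic 1 stood at -3.56 and the other 6 arrays between -6.53 and -4.88.

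The cDNA probe of the MEF2-interacting repressor, A_55_P2733412, was near the detection limit in most PRA transgenic arrays. Its Cy5 was -3.76, -2.76 and -4.21 in wild-type and -3.50, -6.69, -5.26 and -4.59 in PRA transgenic arrays, a difference of -1.43 with PRA transgenic 1 inside the wild-type range. Its log2 ratio was 2.71, 3.76 and 2.38 against 1.95, -0.44, 0.68 and 1.53, a difference of -2.02 with no overlap, which was -0.37 with normexp. Cy5 was well above background on all wild-type arrays and on PRA transgenic 1 alone, so the values of the other 3 PRA transgenic arrays are near or under the detection limit.

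The probe listed under both transcript variants, A_51_P204031, was detected on the same arrays, all 3 wild-type and PRA transgenic 1. Its Cy5 was -4.60, -3.87 and -4.87 in wild-type and -4.17, -4.95, -6.33 and -5.46 in PRA transgenic arrays, a difference of -0.78. Its log2 ratio was 2.04, 2.74 and 1.77 against 1.60, 1.21, -0.36 and 0.65, a difference of -1.41, or -0.47 with normexp. PRA transgenic 1 again stood inside the wild-type range in Cy5 and below it in the ratio.

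The other 2 probes of transcript variant 1 were dim in every group. A_55_P2065074 did not reach well above background anywhere, so no fold is given. Its log2 ratio was -0.33, 1.14 and 0.47 in wild-type and -0.35, -0.45, -0.42 and -0.51 in PRA transgenic arrays, and the nearest pair of the 2 groups was 0.024 apart. A_51_P255467 was well above background on wild-type 2 alone. Its log2 ratio was -0.11, 1.78 and 0.65 against -0.55, -0.25, -0.32 and -0.42, but in Cy5 its highest array was PRA transgenic 3 at -4.79 and the genotype difference was -0.099. Among the probes of transcript variant 1 alone, signal was therefore seen mainly at the last, A_55_P2497024. Whether that probe reads the whole long transcript was not tested.

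**Figure D1:**
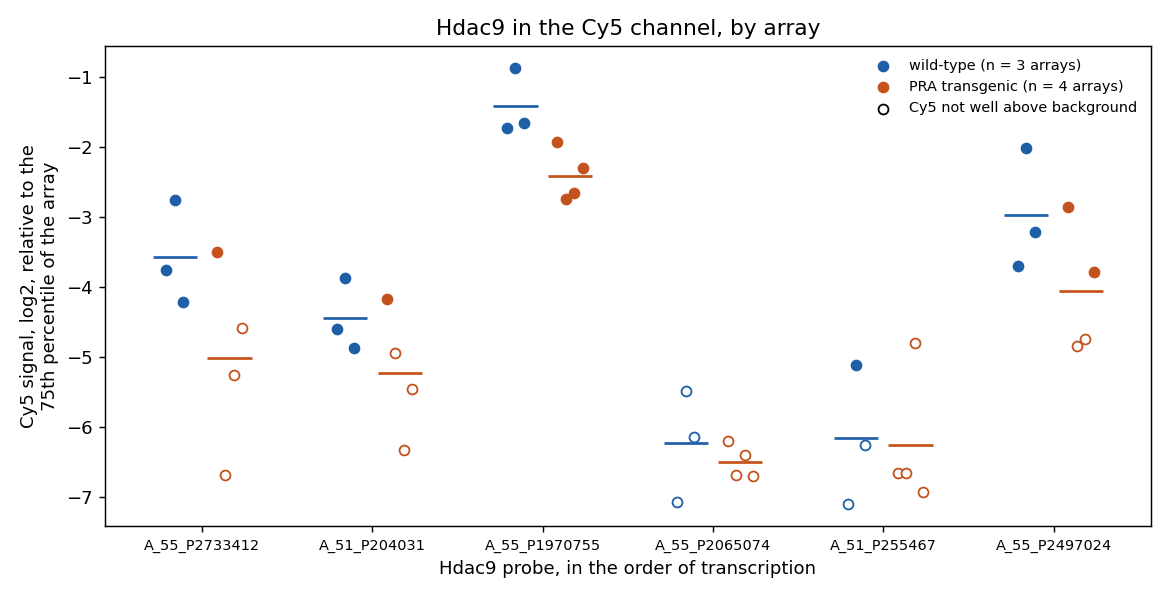
Cy5 signal of the 6 Hdac9 probes (horizontal axis, order of transcription) on a log2 scale relative to the 75th percentile of each array, with 1 point per array, blue for the 3 wild-type and orange for the 4 PRA transgenic arrays. Lines are group means and open points were not well above background. A_55_P1970755 has all points filled and no overlap (means -1.41 and -2.40), while PRA transgenic 1, the highest orange point of A_55_P2733412, A_51_P204031 and A_55_P2497024, lies within the blue points there.

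At the 4 probes kept, the mean was lower in PRA transgenic arrays in the ratio and in Cy5. The arrays did not overlap at 3 of these 4 in the ratio, and over all probes kept 4.52% had every PRA transgenic array below every wild-type array. Those 3 probes passed the filter through the wild-type arrays alone, and Hdac9 was chosen as lower here. The share therefore cannot be used to judge the count. In Cy5 alone the arrays did not overlap at 1 of the 4, and that probe was the 1 that overlapped in the ratio. The Cy3 values differed too. At 4 of the 6 probes, all 4 PRA transgenic arrays lay above all 3 wild-type arrays in Cy3, by 0.59 to 1.06 on average. The pooled reference RNA was the same each time and was not well above background there. Cy3 at these probes was a surrogate, a value put in place of the measured signal, on 5 or 7 of the 7 arrays. The share of all probes with Cy3 separated this way is not given, so the count cannot be judged. Of the 34284 probes kept, 3652 (10.7%) likewise had Cy3 not well above background on any array. Their median genotype difference was -0.21 in the ratio and -0.065 in Cy5, and 9.58% of them had every PRA transgenic array below every wild-type array in the ratio against 5.45% in Cy5. The part of the Cy3 shift in the Hdac9 ratios was not tested.

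**Figure D2:**
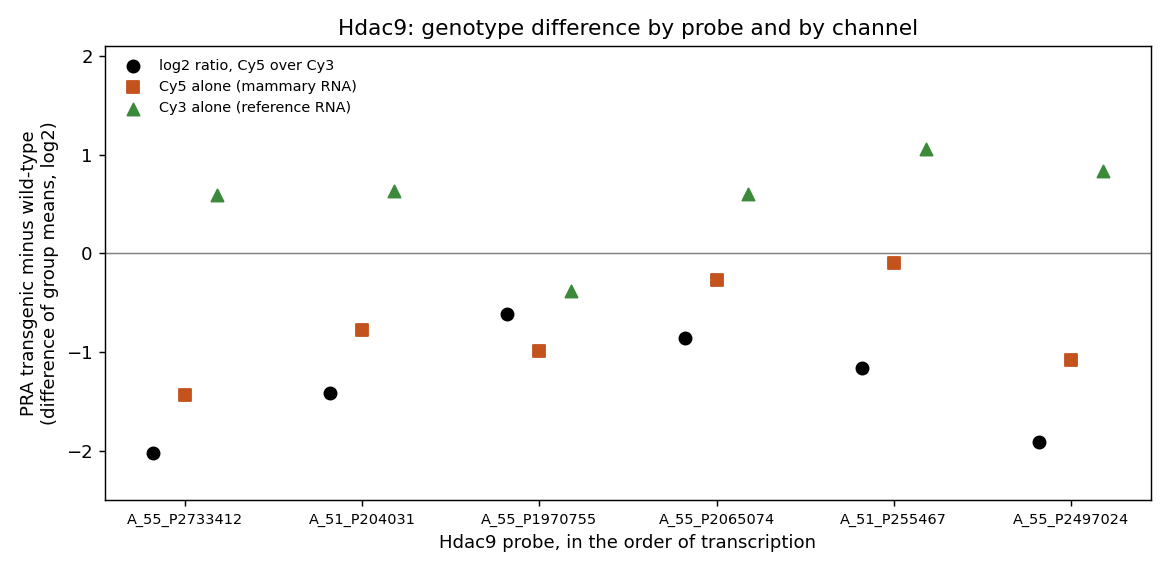
Difference of group means, PRA transgenic minus wild-type, in log2 for the 6 Hdac9 probes in the order of transcription. Black circles are the ratio, orange squares Cy5 alone and green triangles Cy3 alone. The ratio lies below Cy5 at the 5 probes whose Cy3 is higher in PRA transgenic arrays, and above it at A_55_P1970755 (-0.61 against -0.99), whose Cy3 is lower.

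The arrays also differed within each genotype. Wild-type 2 had the highest Cy5 at 5 of the 6 probes, and it was the array lowest in skeletal muscle markers (-0.86). PRA transgenic 1 to 3 were also low in these markers, between -0.63 and -0.51. They ranked 4, 7 and 6 of the 7 arrays in Cy5 at A_55_P1970755. Whether Hdac9 and muscle markers go together was not tested. PRA transgenic 1 was the highest of its group at 5 of the 6 probes. Over the 7 arrays, the Cy5 of the end probe of variant 2 and that of the end probe of variant 1 had a Pearson r of 0.93 (n = 7, arrays shared), and 0.98 once the genotype means were taken off. The same pair had an r of 0.35 in the ratio. Over the 6 pairs of the 4 kept probes, r ran from 0.63 to 0.93 in Cy5 and from 0.35 to 0.84 in the ratio, this pair being the highest of them in Cy5 and the lowest in the ratio. The SD within genotypes ranged from 0.42 to 1.14 in Cy5 over the 4 Hdac9 probes kept, from 0.11 to 0.40 over the 15 kept probes of the other genes, and had a median of 0.24 over all probes kept. Among the 3652 probes whose reference was not well above background it had a median of 0.41. Without the 3 arrays high in skeletal muscle markers, wild-type 2 was the only wild-type array left, against PRA transgenic 1 to 3. The Hdac9 ratio differences were then -0.94 at A_55_P1970755, -3.03 at A_55_P2733412 and -2.22 at A_55_P2497024. Those of its class IIa relatives were -0.40 at Hdac4, -0.57 at Hdac5 and -0.43 at Hdac7. Other members went the other way, with 0.48 at Hdac2, 0.14 at Hdac6 and 0.84 at Hdac11. With 1 wild-type array no test is given.

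Of the genes measured in both channels on all 7 arrays, 13329 were ranked by how closely their log2 ratio followed that of A_55_P1970755 after genotype means were taken off. The 5 closest were Arpp19 (r = 0.996), Gm15050 (0.991), Bivm (0.990), Ankrd13c (0.989) and Ybx3 (0.979), over 7 arrays. In Cy5 alone their r with Hdac9 was 0.69, 0.46, -0.050, 0.70 and 0.52. Ranked by Cy5 instead, a list chosen after the values were seen, the closest were Fcho2 and Eif1 (both 0.996), Adh1 and Hipk2 (both 0.995) and Serinc1 (0.994), so the 2 scales named no gene in common. With so few arrays, 138 genes exceeded an r of 0.9 in the ratio and 507 did so in Cy5.

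No other histone deacetylase gene passed the test between the genotypes. Of the 15 kept probes of the other 9 genes, 0 had an adjusted p under 0.05 in limma, against 0.0117% (4) of all probes kept. At an unadjusted p under 0.05 there was 1 of 15, higher in PRA transgenic arrays, against 9.02% of all probes. The genotypes overlapped at all 15, whereas 9.93% of all probes did not overlap in 1 direction or the other. The difference was above 0 at 8 probes and below 0 at 7, and its median over the 9 genes by brightest probe was 0.0072, beside 0.024 over all probes kept. In Cy5 alone 7 were above 0 and 8 below. With 3 and 4 arrays the standard errors ran from 0.12 to 0.36, so small differences could not be seen.

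**Figure D3:**
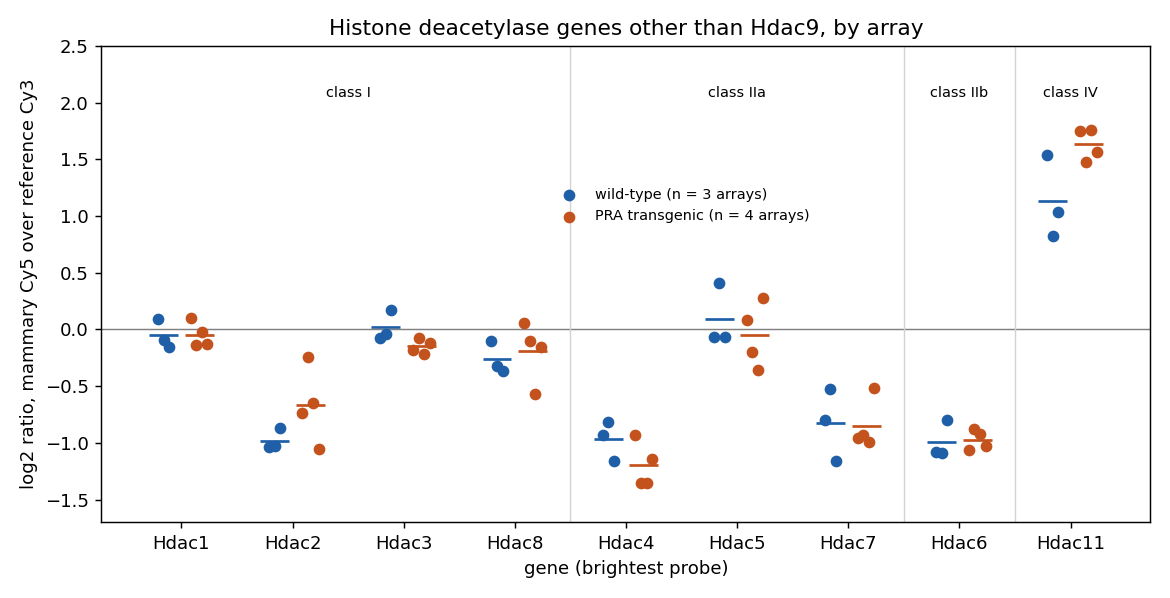
Log2 ratio of gland Cy5 over reference Cy3 for the brightest probe of the 9 genes other than Hdac9, grouped by class along the horizontal axis. Points are arrays, 3 wild-type in blue and 4 PRA transgenic in orange, and lines are group means. The groups overlap at every gene, and Hdac11 has the widest gap between means (1.13 and 1.64).

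Among the class I genes, Hdac1 and Hdac2 are the paired catalytic subunits of the Sin3, NuRD and CoREST complexes. Hdac1 (chr4:129193374-129193433) read 0.09, -0.09 and -0.16 in wild-type and 0.10, -0.14, -0.02 and -0.13 in PRA transgenic arrays, a difference of 0.0072 (SE 0.12, adjusted p = 0.993 in limma). Its other 2 probes differed by 0.060 and -0.082. Hdac2, with 1 probe (chr10:36713455-36713589), read -1.04, -1.03 and -0.87 against -0.74, -0.24, -0.65 and -1.05. Of the PRA transgenic arrays 3 lay above all wild-type arrays and PRA transgenic 4 below them. That is a difference of 0.31 (SE 0.20, adjusted p = 0.692 in limma), of which 0.018 was seen in Cy5 alone, while the Cy3 of this probe was lower in every PRA transgenic array by 0.29 on average. Without PRA transgenic 2 the difference was 0.17.

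Hdac3 (chr18:38096625-38096647), the catalytic subunit of the NCoR and SMRT complexes through which class IIa proteins repress, read -0.08, -0.04 and 0.18 in wild-type and -0.18, -0.07, -0.21 and -0.12 in PRA transgenic arrays. The ranges met at wild-type 1 and PRA transgenic 2, which were 0.0029 apart, and the difference was -0.17 (SE 0.12, adjusted p = 0.722 in limma). A second Hdac3 probe differed by -0.068 with wider scatter among PRA transgenic arrays, from -0.44 to 0.78. Hdac8, a class I enzyme that works outside these complexes and deacetylates cohesin, lay between -0.37 and -0.10 in wild-type and between -0.57 and 0.058 in PRA transgenic arrays on its brightest probe (chrX:99503070-99597969, its ends mapping apart). It differed by 0.073 (SE 0.17, adjusted p = 0.943 in limma) and by 0.091 at its other probe.

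The class IIa relatives of Hdac9 overlapped between the genotypes on every kept probe. Hdac4 (chr1:93829554-93829613), known for its part in chondrocyte growth and muscle, read -0.93, -0.82 and -1.16 in wild-type and -0.93, -1.35, -1.36 and -1.14 in PRA transgenic arrays. PRA transgenic 2 and 3 lay below all wild-type arrays, and the difference was -0.23 (SE 0.16, adjusted p = 0.719 in limma). Its other kept probes gave -0.18 and 0.041, so the Hdac4 probes did not share a direction. A further probe, well above background on 1 array in Cy5, was left out. Hdac5 (chr11:102057076-102057135), a regulator of heart and muscle growth, read -0.07, 0.41 and -0.06 against 0.08, -0.20, -0.36 and 0.27, a difference of -0.14 (SE 0.20, adjusted p = 0.883 in limma). Hdac7 (chr15:97623208-97623267), prominent in endothelium and thymocytes, read -0.80, -0.53 and -1.16 against -0.95, -0.93, -0.99 and -0.52, a difference of -0.020 (SE 0.19, adjusted p = 0.988 in limma).

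Hdac6 (chrX:7507249-7507308), the class IIb enzyme that deacetylates tubulin, varied little between arrays. Its ratios lay between -1.09 and -0.80 in wild-type and between -1.07 and -0.88 in PRA transgenic arrays, a difference of 0.017 (SE 0.13, adjusted p = 0.986 in limma). Hdac11 (chr6:91124085-91124144), the class IV member, also known to remove fatty acyl groups from lysine, was the probe with an unadjusted p under 0.05. It read 1.54, 0.82 and 1.03 in wild-type and 1.75, 1.48, 1.76 and 1.56 in PRA transgenic arrays. Wild-type 1 lay above PRA transgenic 2, and the other arrays were separated. The difference was 0.51 (SE 0.19, adjusted p = 0.504 in limma), with 0.40 of it in Cy5 alone. The Cy3 of this Hdac11 probe was well above background on 5 arrays. Its other probe was well above background on 2 arrays and was left out.

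**Figure D4:**
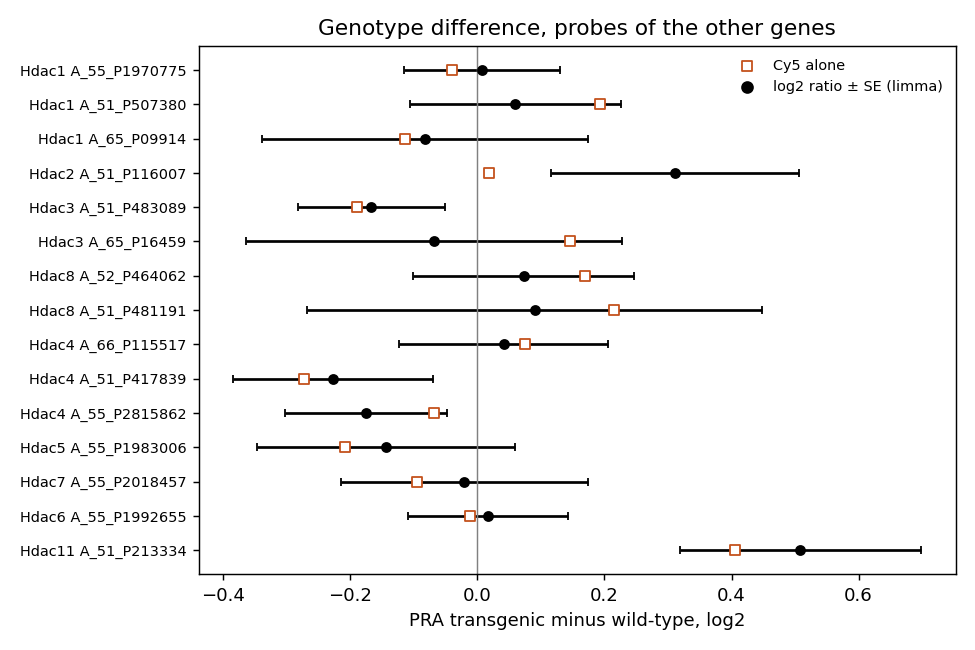
Genotype difference, PRA transgenic minus wild-type, in log2 for the 15 kept probes of the 9 genes other than Hdac9, each row named by gene and probe. Black points with bars are the ratio and its limma standard error, and open squares are Cy5 alone. The bars cross 0 at 10 of 15 probes, and the ratio of Hdac2 (0.31) stands away from its Cy5 value (0.018).

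The genes that work with these enzymes were taken as 5 lists of 76 genes, all of them measured. By brightest probe, 0 of 76 passed an adjusted p under 0.05 in limma. At an unadjusted p under 0.05 there were 5, all lower in PRA transgenic arrays, which is 6.58% beside the 9.02% of all probes. The genotypes did not overlap at 11 genes, or 14.5%, beside 9.93% of all probes. The median difference was -0.033 over the 76 genes.

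Among 33 corepressor subunits the 3 with the lowest p were all lower. Tbl1xr1, a subunit of NCoR and SMRT complexes, read -0.51, -0.23 and -0.43 in wild-type and -0.86, -1.005, -0.99 and -0.73 in PRA transgenic arrays, a difference of -0.51 (SE 0.13, adjusted p = 0.405 in limma) with no overlap. Arid4a, a subunit of the Sin3 complex, differed by -0.47 with no overlap (SE 0.14, adjusted p = 0.421). Kdm1a, the histone demethylase of CoREST, differed by -0.30 and overlapped (SE 0.13, adjusted p = 0.545). The list as a whole had 13 genes above 0 and 20 below, with a median of -0.039.

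The 22 class IIa partners comprise the MEF2 factors, the kinases that export class IIa proteins, the 14-3-3 proteins and a pair of ankyrin-repeat binders. Prkd2, a protein kinase D that phosphorylates class IIa proteins, read 0.45, 0.26 and 0.10 in wild-type and -0.17, -0.21, -0.18 and -0.10 in PRA transgenic arrays, a difference of -0.44 (SE 0.12, adjusted p = 0.412 in limma). Ywhaz, the 14-3-3 zeta protein, differed by -0.26 (SE 0.12, adjusted p = 0.581), again with no overlap. Prkd1, another protein kinase D, differed by 0.37 and overlapped (SE 0.21, adjusted p = 0.654). The direct DNA-binding partners of Hdac9 showed small differences, from -0.020 at Mef2b to -0.22 at Mef2c, with -0.026 at Mef2a and -0.21 at Mef2d. Over the list 8 genes were above 0 and 14 below, with a median of -0.070.

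Sirtuins are NAD-dependent deacetylases unrelated to the family above. Of 7, Sirt4 in mitochondria differed by -0.42 (SE 0.16, adjusted p = 0.516 in limma), Sirt1 in the nucleus by -0.18 and Sirt2 in the cytoplasm by 0.18, and none of the 3 overlapped between genotypes. Acetyltransferases put on the marks that Hdac proteins remove. Kat7 differed by 0.14 with no overlap, Kat2a by -0.16 and Kat6b by -0.23, and 0 of 12 had an unadjusted p under 0.05. The bromodomain readers of acetyl-lysine Brd3 and Brd2 differed by 0.16 and -0.13, both with overlap.

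**Figure D5:**
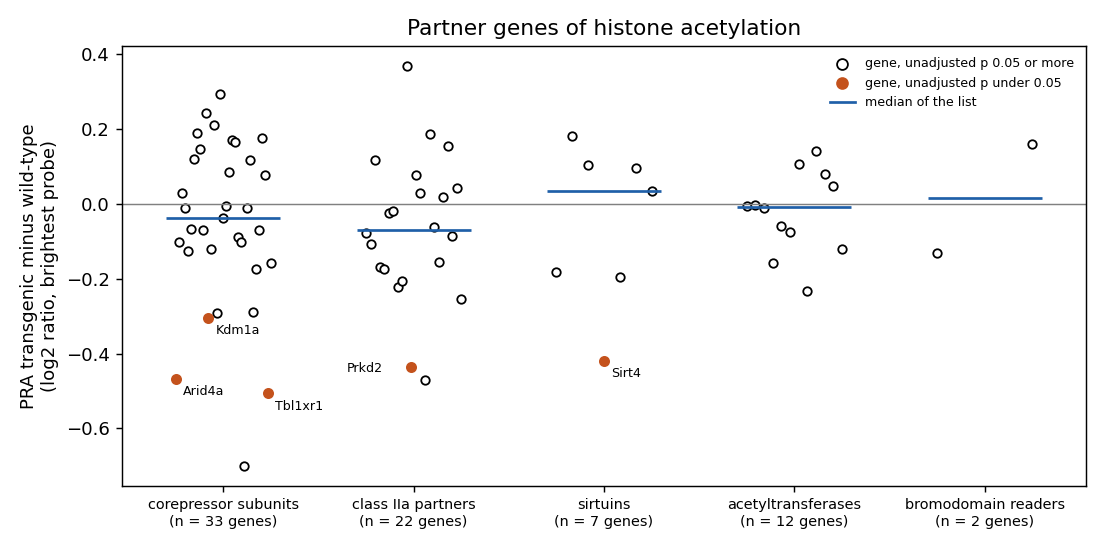
Genotype difference, PRA transgenic minus wild-type, in the log2 ratio of the brightest probe for 76 partner genes in 5 lists along the horizontal axis. Each point is a gene, filled and named where the unadjusted p was under 0.05, and blue lines are list medians. The 5 filled points all lie below 0, from -0.51 at Tbl1xr1 to -0.30 at Kdm1a, and none passed the adjusted threshold.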

How the data were processed

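RNA of 7 mammary glands was measured on 2-colour Agilent arrays. The authors scanned the arrays and deposited, per the file headers, spot intensity that Feature Extraction had background-subtracted and dye-normalized (linear and LOWESS). The submitters' processing notes name Agilent Feature Extraction 12.0. A deposited table of log2 ratios was found to be the same ratios minus the 7-array median of each probe (r of at least 0.9999 on each array) and was used as an alternative.

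Log2(Cy5/Cy3) of the processed signals was taken, control and outlier spots were left out and spots of a probe averaged. Cy5 alone and Cy3 alone are log2 signals minus the 75th percentile of the array. Genotypes were compared with limma 3.58.1 in R 4.3.3 (lmFit, eBayes, two-sided, Benjamini-Hochberg over the 34284 probes kept), after a test on simulated data. Each gene was read by its brightest probe among those kept. Every Hdac9 probe, all members, the 3 lowest-p genes of each partner list and the 5 genes most like Hdac9 were named. From the partner lists, 1 gene is not reported here and is left out of their counts. Members and lists were chosen with earlier results of these data known. There were no dye swaps, so a dye effect of a probe enters every array alike, and replicates are separate animals. The number of arrays limits the precision. Alternatives covered background correction, normalization, filters, channel, test, variance model, weights, replicate block and each array left out.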

Additional observations from a re-analysis of the deposited data

Results flagged for a closer look

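Within the 4 PRA transgenic arrays, 3 measures had 1 array far from the others by Dixon's ratio, the gap to the nearest array over the whole range. All 3 were high on PRA transgenic 4. They were Hdac7 in the log2 ratio (0.874, with -0.52 on that array and -0.99 to -0.93 on the others), Hdac4 at A_66_P115517 in Cy5 alone (0.904, with -0.55 against -1.42 to -1.34) and the skeletal muscle markers (0.964, with 2.68 against -0.63 to -0.51). Of 47 groups of arrays examined, 2.35 would pass by chance.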

How the results depend on the processing

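No probe of the other 9 genes and no partner gene had an adjusted p under 0.05 under any alternative run. At an unadjusted p under 0.05 the other 9 genes had 1 of 15 probes, also by the methods' t-test. They had 0 with normexp and loess, in Cy5 alone or with array weights, where 2588, 3046 and 4047 of all 34284 probes had such a p. With both channels required above background 13 probes of 8 genes were left and had 0, as the filter removed the Hdac11 probe. Leaving out 1 array gave 0 to 2, with 0 without wild-type 2 or 3 or PRA transgenic 1 or 3 and 2 without PRA transgenic 4. Over all probes it gave 2280 to 4233. The count without overlap (0) was 2 after quantile normalization and 0 to 4 with 1 array left out, 4 without wild-type 1, 3 without PRA transgenic 2, and 1 without wild-type 3 or PRA transgenic 4, when 12.4% to 19.5% of all probes did not overlap. An alternative chosen after seeing the data left out the 3 arrays high in skeletal muscle markers. Wild-type 2 was then the only wild-type array, so no count is given for that alternative. Signs of differences near 0 turned. Hdac1 was -0.041 in Cy5 alone, -0.029 after quantile normalization and -0.021 with array weights, Hdac6 was -0.012 in Cy5 alone and Hdac8 -0.037 with array weights. With 1 array left out, Hdac1 ran from -0.045 to 0.078, Hdac2 from 0.17 to 0.44, Hdac3 from -0.21 to -0.089, Hdac4 from -0.32 to -0.15, Hdac5 from -0.25 to 0.015, Hdac6 from -0.035 to 0.11, Hdac7 from -0.18 to 0.13 Hdac8 from -0.010 to 0.20 and Hdac11 from 0.35 to 0.71. The partner count at an unadjusted p under 0.05 (5 of 76) was 11 by the methods' t-test, where 3157 of all 34284 probes had such a p. It was 8 in Cy5 alone, beside 3046 of all probes. With 1 array left out the partner count was 3 to 6, 3 without PRA transgenic 3, beside 2280 to 4233 of all probes.

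All 4 kept Hdac9 probes stayed below 0 under every alternative that could give a value. Hdac9 was chosen as lower on these same arrays, and most of these probes passed the filter through wild-type arrays alone. The signs are therefore a description and no further evidence of a difference. With normexp, which adds 50 to every signal, the differences were -0.47 at A_51_P204031, -0.37 at A_55_P2733412 and -0.74 at A_55_P2497024. In Cy5 alone A_55_P2497024 was -1.08. Without the 3 arrays high in muscle markers, 1 wild-type array was left, against 3 PRA transgenic arrays. A_55_P2733412 was then -3.03 and A_55_P2497024 -2.22, with Hdac4 at -0.40, Hdac5 at -0.57 and Hdac7 at -0.43. Hdac2 at 0.48, Hdac6 at 0.14 and Hdac11 at 0.84 went the other way. With 1 array left out the Hdac9 differences ran from -1.69 to -1.03 at A_51_P204031, -2.36 to -1.57 at A_55_P2733412, -0.98 to -0.36 at A_55_P1970755 and -2.07 to -1.83 at A_55_P2497024. With both channels required above background no Hdac9 probe was left.

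The replicate numbers did not pair the animals, with correlations of 0.10, -0.30 and 0.036 between same-numbered arrays. With the replicate block, 1 of 15 probes of the other genes and 3 of 76 partner genes had an unadjusted p under 0.05, the median over the other genes was 0.033, and 0 of all probes passed the adjusted threshold, with 3370 at an unadjusted p under 0.05.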
